A study of Arabidopsis thaliana with 18 samples.

Results

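Leaf maturation in the wild type (WT, Col-0) was followed in the first pair of leaves, harvested whole at 9 and at 16 days after stratification (DAS). The comparison rested on 6 libraries, WT replicates 1 to 3 at each day, out of 16 libraries with values and 18 that the labels list. The labels call 9 DAS the proliferation stage and 16 DAS the expansion stage. WT carried no transgene, and all plants were grown on agar medium with sugar under long days without any treatment. The other 10 libraries came from P10 and P21, each an independent line that carries the PID cDNA behind the 35S promoter, with 3 libraries per day for P10 and 2 per day for P21. They are used below only to set the WT change beside that of the same leaves in another genotype.

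The first leaves of Arabidopsis grow by cell division and then by cell expansion. Division stops first at the tip, and the stop moves toward the base, after which cells enlarge, repeat DNA replication without mitosis, finish their chloroplasts and turn the leaf from an importer into an exporter of sugar. Genes of the mitotic cycle are switched on by MYB3R factors, and genes of DNA synthesis by E2F factors. The growth-regulating factors (GRF) with their coactivator GIF1 and the AP2 factor ANT keep leaf cells dividing.

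Uniquely mapped reads per gene region entered edgeR's quasi-likelihood test, with a separate mean for every combination of genotype and day. Differentially expressed genes (DEGs) had a Benjamini-Hochberg adjusted p under 0.05 and changed by more than 0.75 on the log2 scale. Levels are CPM, the share of a library's reads scaled by TMM factors, each fold change is 16 over 9 DAS, and values of 3 libraries are given in the order of their replicate numbers. The WT libraries held 1516784 to 4695692 unique gene reads, with 18039 to 19079 genes detected. The first principal component took 76.5% of the variance among them and separated the days, while the second, with 7.67%, set replicates of both days apart. The second library index was one for all WT libraries at 9 DAS and another for all at 16 DAS, so index and day cannot be told apart in WT. P21 carried one index at both days, and its own day change is therefore given beside the WT results. The headers of the tables name a single lane for each library, which for replicate 2 of P21 at 9 DAS is another lane than for the rest.

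Markers matched the label of whole leaves. The 5 mesophyll markers summed to 36154 to 46459 CPM at 9 DAS and to 58671 to 65945 CPM at 16 DAS. Of the 8 markers of the shoot apical meristem, WUS had no read in any WT library, and the list summed to 7.4 to 14.3 CPM at 9 DAS and to 0 to 1.59 CPM at 16 DAS. STM, the homeobox gene that maintains the meristem, had 2.84, 0.494 and 3.93 CPM at 9 DAS and 0, 0 and 0 CPM at 16 DAS, which is at least 6.87-fold higher at 9 DAS when 16 DAS is set to 3 reads over its libraries. Flower markers reached at most 3.31 CPM and seed markers at most 1.48 CPM in sum. The root list summed to 43.9 to 64 CPM and to 78.2 to 115 CPM, nearly all from SCR and SHR, with RHD6 at 0. The part of meristem tissue in the results was not tested.

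From 9 to 16 DAS 5937 of 16499 genes tested were DEGs (36.0%). Of these 3077 were higher (18.6%) and 2860 lower (17.3%) at 16 DAS, so 51.8% of the DEGs were higher. The shares of 18.6% and 17.3% are the background for the counts of list members in WT below. The split depended on the scaling. With upper-quartile factors, which moved the median of all genes from -0.0381 to -0.21, 39.9% of 6291 DEGs were higher, and on log2(RPKM + 1) with limma 33.0% of 6174 were. A change of over 4-fold was seen for 949 genes that rose and 927 that fell, and one of over 16-fold for 162 and 205. The levels of the days did not overlap for 8992 of the genes tested and for 5701 of the DEGs. With the fold change itself tested against 0.75 (glmTreat), 3324 genes passed.

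Most of the WT change had the same direction in the lines. Of the 3077 genes that rose in WT, 94.0% had a positive day change in P21 and 51.8% were DEGs there in the same direction, against 48.8% and 12.7% of all genes tested. Of the 2860 that fell, 93.5% had a negative change in P21 and 46.2% were DEGs, against 51.1% and 11% of all genes. In P10 16.6% of all genes tested rose and 14.4% fell, which with the P21 shares are the background for the counts of members in the lines below. In P21 6 WT DEGs were called in the opposite direction. The median change of these genes was 0.99 and -1.07 on the log2 scale in P21 and 1.49 and -1.47 in WT, where the WT values come from the samples that chose the genes and are raised by that choice. Tested directly, the day change of P21 differed from that of WT for 524 genes (3.18%) and that of P10 for 776 genes (4.70%). Without replicate 1 of WT at 16 DAS these counts were 318 and 480, without its replicate 3 the first was 318, and without replicate 1 of WT at 9 DAS the second was 485. In the test of P21 against WT index and line cannot be told apart, which holds for each such test below.

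**Figure D1:**
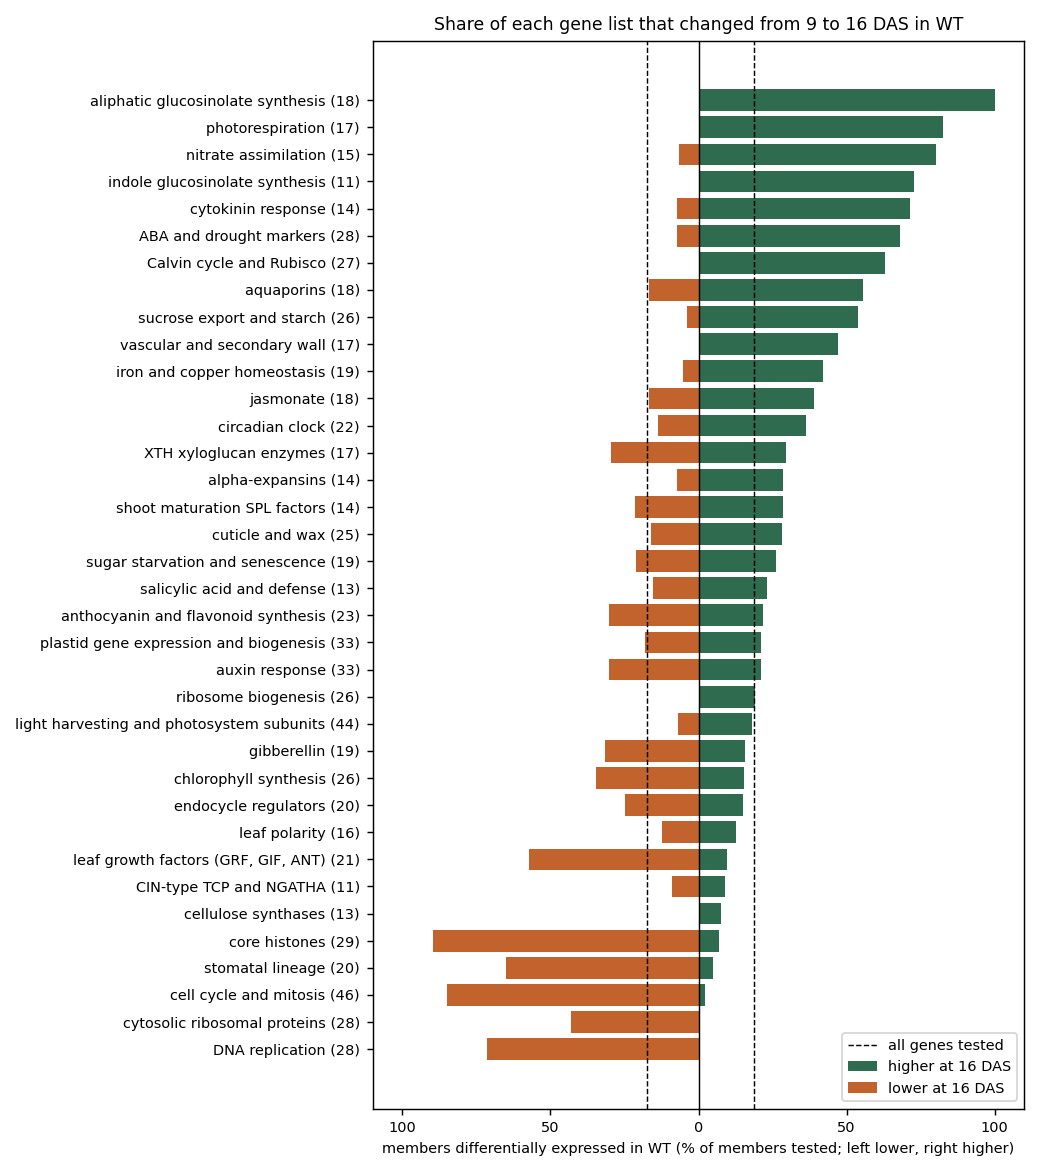
Share of the tested members of 36 gene lists that were DEGs in WT (x axis, percent; higher at 16 DAS to the right, lower to the left; number tested in brackets), with dashed lines at the share of all genes tested (18.6% and 17.3%). Aliphatic glucosinolate synthesis lies at 100% on the right, and core histones (89.7%) and the cell cycle (84.8%) reach furthest on the left.

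The genes of mitosis fell together. Of 46 tested members of the cell cycle list 39 were lower at 16 DAS and 1 was higher, with a median log2 fold change of -3.01 against -0.0381 over all genes. CYCB1;2, a mitotic B-type cyclin, stood at 51, 58.7 and 36.5 CPM at 9 DAS and 1.59, 1.99 and 1.49 CPM at 16 DAS (log2 change -4.75 with SE 0.32, adjusted p = 4.3e-10). CDC20.1, an activator of the anaphase-promoting complex, stood at 100, 118 and 73 CPM at 9 DAS and 3.51, 3.23 and 7.45 CPM at 16 DAS (log2 change -4.54 with SE 0.32, adjusted p = 3.1e-09), and its near copy CDC20.2 at 35.9, 56.8 and 29.7 CPM at 9 DAS and 0.638, 1.74 and 0.745 CPM at 16 DAS (log2 change -5.07 with SE 0.41, adjusted p = 5.7e-09). About 57.4% and 56.3% of the reads of this pair were unique, so their separate levels are uncertain. PLE, a microtubule-associated protein of the division plate, stood at 34, 39.5 and 28.3 CPM at 9 DAS and 0, 2.23 and 2.98 CPM at 16 DAS (log2 change -4.42 with SE 0.5, adjusted p = 1.7e-06), and CYCB1;1 at 15.1, 22.2 and 16.5 CPM at 9 DAS and 0.638, 0.248 and 3.73 CPM at 16 DAS (log2 change -4.11 with SE 0.5, adjusted p = 1.3e-06). For each of these genes every 9 DAS library lay above every 16 DAS library, which was a condition for naming all but CYCB1;1. The mitotic kinase CDKB1;2 (-4.18), the cyclin CYCA2;3 (-3.96) and the aurora kinases AUR1 (-3.8) and AUR2 (-3.71) fell too. The exception was CYCD2;1, a D-type cyclin, at 15.6, 9.38 and 17.2 CPM at 9 DAS and 24.9, 22.3 and 26.1 CPM at 16 DAS (log2 change 0.77 with SE 0.29, adjusted p = 0.033), a call that was lost without any one of 5 of the 6 WT libraries. In P21 33 members fell, in P10 40, and neither line's day change differed from that of WT in more than 1 member. In whole leaves fewer dividing cells and less of a transcript per cell cannot be told apart, which holds for every result below.

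The replication and histone genes fell as well. Of 28 tested genes of DNA replication 20 were lower and none was higher (median -1.41). MCM4, a subunit of the replicative helicase, stood at 22.7, 22.7 and 27.5 CPM at 9 DAS and 6.06, 6.45 and 3.73 CPM at 16 DAS (log2 change -2.08 with SE 0.26, adjusted p = 1.9e-06), and MCM5 of the same complex at 19.8, 27.1 and 29.7 CPM at 9 DAS and 7.97, 5.21 and 8.94 CPM at 16 DAS (log2 change -1.86 with SE 0.31, adjusted p = 6.4e-05). PCNA1, the sliding clamp, stood at 22.7, 25.7 and 24 CPM at 9 DAS and 4.78, 6.7 and 3.73 CPM at 16 DAS (log2 change -2.15 with SE 0.28, adjusted p = 3.1e-06). ORTH2, a methylcytosine-binding ubiquitin ligase, stood at 27.4, 41 and 34 CPM at 9 DAS and 5.1, 6.45 and 8.94 CPM at 16 DAS (log2 change -2.39 with SE 0.27, adjusted p = 4.3e-07). The days did not overlap for any of these, as the rule for naming genes required. The same genes hardly moved in P21, where 1 member fell and the median was -0.01, while 25 fell in P10 (median -1.98). In P21 MCM4 stood at 14.5 and 11.1 CPM at 9 DAS and 8.34 and 12 CPM at 16 DAS, between the WT levels of the days. The difference between the day changes of P21 and WT passed the test for 3 members, MCM4 (1.77), PCNA1 (2.12) and PCNA2 (2.05). The days of WT and of P10 carry different indexes and those of P21 do not, and the part of the index in this result was not tested.

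Core histone genes showed 26 of 29 tested members lower and 2 higher (median -1.59). HTA11, which encodes the variant H2A.Z, stood at 102, 85.4 and 99.1 CPM at 9 DAS and 13.1, 10.9 and 6.71 CPM at 16 DAS (log2 change -3.14 with SE 0.22, adjusted p = 7.3e-10). HTA8, of the same kind, fell too (log2 change -2.54 with SE 0.3, adjusted p = 8.7e-07). HTA13, a replication-dependent H2A, stood at 118, 94.3 and 130 CPM at 9 DAS and 18.2, 15.9 and 18.6 CPM at 16 DAS (log2 change -2.71 with SE 0.17, adjusted p = 2.4e-10), and the H3 gene AT5G10400 at 126, 113 and 156 CPM at 9 DAS and 15.6, 23.6 and 26.1 CPM at 16 DAS (log2 change -2.62 with SE 0.19, adjusted p = 9.3e-10). Histones as a list took 0.358% to 0.419% of CPM at 9 DAS and 0.136% to 0.153% at 16 DAS. Against the list HTA12, an H2A.W of heterochromatin, stood at 4.25, 6.91 and 1.79 CPM at 9 DAS and 9.57, 11.2 and 13.4 CPM at 16 DAS (log2 change 1.42 with SE 0.39, adjusted p = 0.005). It did not pass with glmTreat (adjusted p = 0.067), and the H2A.W genes HTA6 (-2.04) and HTA7 (-0.88) fell. In P21 17 members fell, with a median of -0.95, and 10 members fell less in P21 than in WT by the test of the difference. HTA13 overlaps another locus, and reads of the partners cannot be told apart.

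Promoters of these genes are shown because they held short motifs, known to be bound by factors of the cell cycle, more often than all promoters. The lists did not all hold the same motif. Motifs were searched on both strands from 250 bases before to 50 after the annotated start in RefSeq's annotation of TAIR10.1. The E2F letters TTTCCCGC, TTTGGCGC, TTTGCCGC or TTTCGCGC were in 51.7% of 29 promoters of DNA replication genes and in 1.76% of 27443 promoters of all protein-coding genes. They were in 4.17% of cell cycle promoters and 3.45% of histone promoters. The MSA core CNAACGG, the mark of mitotic genes, was in 29.2% of 48 cell cycle promoters and 41.4% of 29 histone promoters, against 5.52% of all. It was in 6.9% of DNA replication promoters. The octamer CGCGGATC was in 24.1% of histone promoters and 0.146% of all, and in none of the cell cycle or DNA replication promoters. Among all genes that fell, 3.04% held an E2F motif, and among all that rose 1.37%. The 250 bases before the start follow for the members with the largest change that hold the motif of their list there, in lower case with the motif matches in capitals (MSA core in the cyclins, E2F in the MCM genes, the octamer in HTA13, whose other motifs are left in lower case).
CYCB1;2 promoter, chr5:1861704-1861953, minus strand: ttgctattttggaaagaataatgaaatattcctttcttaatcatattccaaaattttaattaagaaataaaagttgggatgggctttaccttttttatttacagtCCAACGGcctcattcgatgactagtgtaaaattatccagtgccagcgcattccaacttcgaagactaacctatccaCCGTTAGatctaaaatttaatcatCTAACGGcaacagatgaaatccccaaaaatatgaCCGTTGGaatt
CYCB1;1 promoter, chr4:17624309-17624558, minus strand: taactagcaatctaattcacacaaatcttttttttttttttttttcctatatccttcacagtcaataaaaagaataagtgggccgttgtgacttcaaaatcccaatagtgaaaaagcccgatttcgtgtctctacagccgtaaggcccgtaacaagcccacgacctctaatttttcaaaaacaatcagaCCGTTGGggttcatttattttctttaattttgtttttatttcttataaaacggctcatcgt
MCM4 promoter, chr2:7130730-7130979, minus strand: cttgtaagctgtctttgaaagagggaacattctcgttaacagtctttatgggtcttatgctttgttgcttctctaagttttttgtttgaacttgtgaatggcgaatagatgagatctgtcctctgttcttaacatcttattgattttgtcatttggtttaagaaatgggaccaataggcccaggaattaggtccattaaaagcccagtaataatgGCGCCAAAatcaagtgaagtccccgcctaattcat
MCM5 promoter, chr2:3527501-3527750, minus strand: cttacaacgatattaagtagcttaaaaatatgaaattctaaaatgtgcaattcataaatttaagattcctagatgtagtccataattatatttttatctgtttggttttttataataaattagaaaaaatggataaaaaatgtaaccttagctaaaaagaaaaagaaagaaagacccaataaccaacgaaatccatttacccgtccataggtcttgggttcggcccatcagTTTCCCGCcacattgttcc
HTA13 promoter, chr3:7229140-7229389, plus strand: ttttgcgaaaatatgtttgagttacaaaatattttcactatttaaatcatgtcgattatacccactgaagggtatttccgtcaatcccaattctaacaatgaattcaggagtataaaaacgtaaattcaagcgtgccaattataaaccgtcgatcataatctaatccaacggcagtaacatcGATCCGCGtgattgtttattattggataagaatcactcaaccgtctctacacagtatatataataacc
CYCB1;2 holds 4 MSA cores and CYCB1;1 holds 1. A match is a description of the letters and not a measured binding site.

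**Figure D2:**
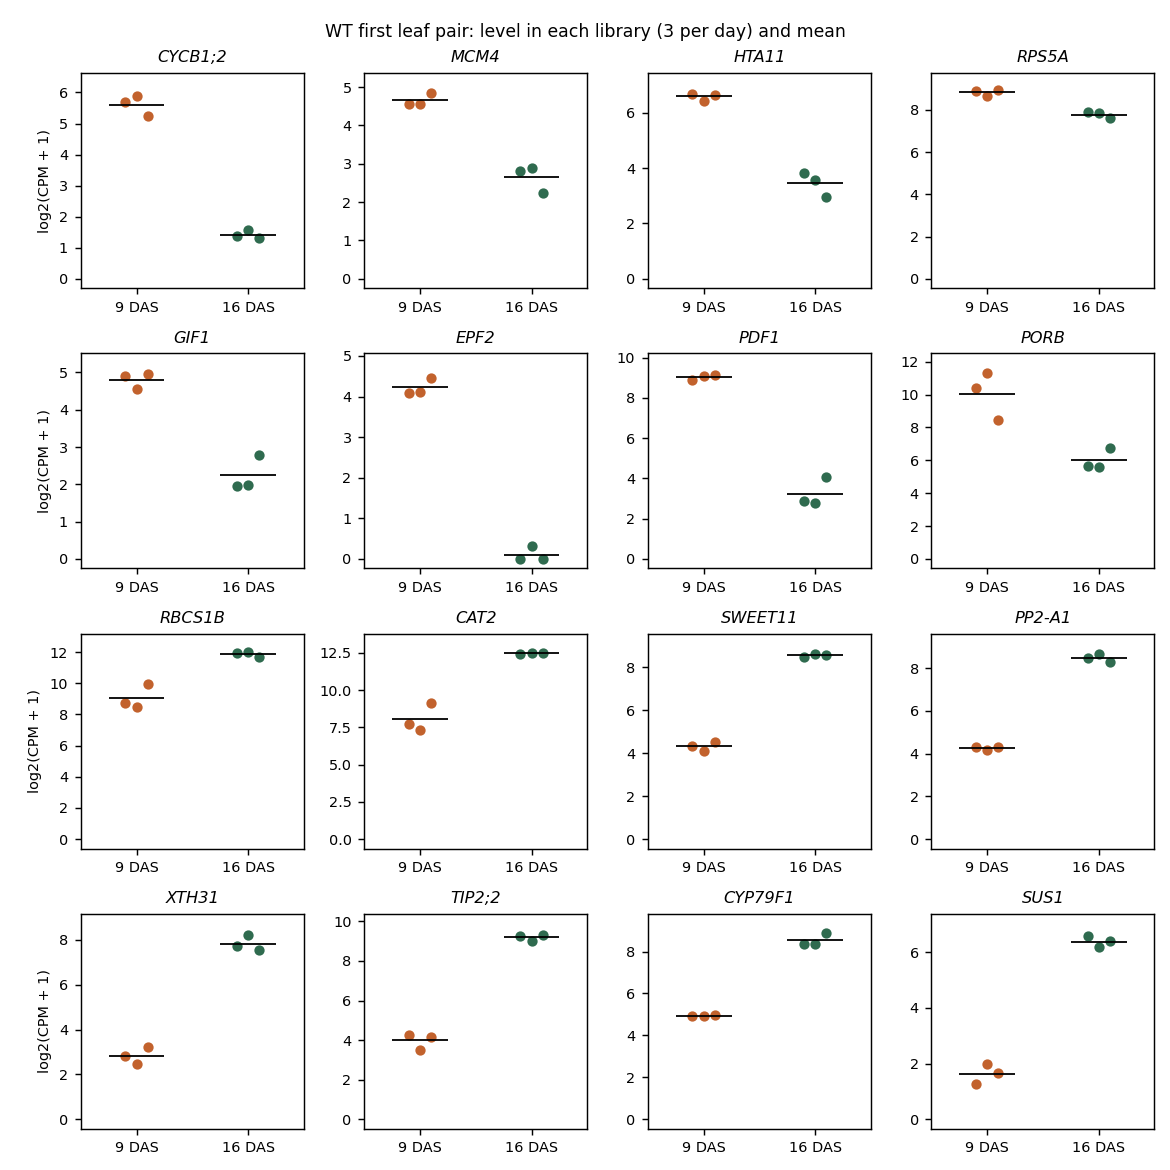
Level of 16 genes in each WT library (points, 3 per day; y axis log2(CPM + 1); bar: mean). The first 8 genes, CYCB1;2 to PORB, lie lower at 16 DAS, the other 8, RBCS1B to SUS1, higher, and the days overlap for none of them. No overlap was a condition of the rule by which these genes were named.

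Endocycle regulators, which take cells from division into repeated DNA replication, did not move as one. Of 20 tested 3 rose and 5 fell (median -0.43), and 3 fell without replicate 2 of WT at 16 DAS, but 8 with upper-quartile factors or on log2(RPKM + 1). SMR1, an inhibitor of cyclin-dependent kinases also known as LGO, stood at 14.6, 11.4 and 18.2 CPM at 9 DAS and 78.8, 78.2 and 76 CPM at 16 DAS (log2 change 2.38 with SE 0.21, adjusted p = 2e-08). CCS52B, an activator of the anaphase-promoting complex that peaks in mitosis, stood at 52.9, 70.1 and 47.9 CPM at 9 DAS and 4.78, 5.21 and 5.22 CPM at 16 DAS (log2 change -3.48 with SE 0.28, adjusted p = 4.4e-09). RHL1, a part of the topoisomerase complex needed for high ploidy, stood at 16.1, 13.8 and 15.7 CPM at 9 DAS and 10.5, 5.71 and 10.4 CPM at 16 DAS (log2 change -0.83 with SE 0.28, adjusted p = 0.02), which was no DEG without that same library (-0.56, adjusted p = 0.14). The rise of SMR1 was smaller in P10 (1.29) and P21 (1.2), and both differences passed the test.

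Of 21 tested regulators of leaf growth 12 were lower and 2 higher (median -1.19). The list holds factors that keep leaf cells dividing and factors that limit growth. The former that fell were 6 GRF genes, GIF1, ANT and KLU (-4.92), and of the latter SPT (-2.96), PPD1 (-1.19) and PPD2 (-0.96) fell while BB (0.99) rose. ANT stood at 50.1, 40.5 and 39.3 CPM at 9 DAS and 4.14, 4.72 and 5.96 CPM at 16 DAS (log2 change -3.17 with SE 0.26, adjusted p = 5.7e-09), and GIF1 at 28.8, 22.7 and 30 CPM at 9 DAS and 2.87, 2.98 and 5.96 CPM at 16 DAS (log2 change -2.93 with SE 0.33, adjusted p = 4.4e-07). GRF3 stood at 41.1, 55.3 and 18.6 CPM at 9 DAS and 2.55, 1.24 and 2.24 CPM at 16 DAS (log2 change -4.28 with SE 0.68, adjusted p = 0.00023), and GRF1 at 26, 53.8 and 14.7 CPM at 9 DAS and 1.28, 1.99 and 5.96 CPM at 16 DAS (log2 change -3.63 with SE 0.66, adjusted p = 0.0005). GRF5 had 65 reads over the 9 DAS libraries and 3 over those of 16 DAS, a ratio of 26.6 (95% counting interval 8.7 to 132). The GRF levels varied up to severalfold among the 9 DAS libraries, with replicate 2 the highest for GRF1, GRF3 and GRF5. No library of 16 DAS reached any of these levels, which was a condition for naming GRF1 and GRF3. ROT3, a cytochrome P450 of brassinosteroid synthesis that acts in leaf length, stood at 4.25, 2.47 and 4.65 CPM at 9 DAS and 9.25, 11.2 and 16.4 CPM at 16 DAS (log2 change 1.6 with SE 0.37, adjusted p = 0.0012). GRF1, GRF3 and ROT3 overlap other loci. In P21 7 members fell, and the fall of ANT was smaller in both lines. Of leaf shape and polarity genes few were DEGs, 1 of 11 CIN-type TCP and NGATHA genes in each direction and 2 of 16 polarity genes in each direction. The larger changes among polarity genes were those of AS2 (-3.24, adjusted p = 0.00024), an adaxial factor, and KAN3 (2.34, adjusted p = 0.00022), an abaxial one. With upper-quartile factors 3 of the former and 5 of the latter fell, and without replicate 2 at 16 DAS 4 polarity genes did. TCP13 stood at 19.4, 7.9 and 16.8 CPM at 9 DAS and 41.8, 43.7 and 45.5 CPM at 16 DAS (log2 change 1.55 with SE 0.24, adjusted p = 2.9e-05). TCP24, a factor of the same class, stood at 41.6, 88.8 and 33.6 CPM at 9 DAS and 26.5, 32 and 24.6 CPM at 16 DAS (log2 change -0.95 with SE 0.29, adjusted p = 0.013), a call that was lost without replicate 2 at 9 DAS (-0.44). YAB5, an abaxial factor, stood at 9.92, 12.3 and 13.2 CPM at 9 DAS and 23, 21.1 and 17.9 CPM at 16 DAS (log2 change 0.81 with SE 0.25, adjusted p = 0.013) and PHV, an adaxial HD-ZIP III factor, at 33.5, 42.4 and 47.9 CPM at 9 DAS and 28.1, 24.3 and 14.2 CPM at 16 DAS (log2 change -0.84 with SE 0.21, adjusted p = 0.0026), both lost in leave-one-out fits (YAB5 without replicate 1 of either day, PHV without replicate 3 of either day).

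Genes of the stomatal lineage, through which dividing epidermal cells become guard cells, were lower at 16 DAS. Of 20 tested 13 fell and 1 rose (median -1.83). EPF2, a peptide that limits entry into the lineage, had 126 reads over the 9 DAS libraries and 1 over those of 16 DAS, a ratio of 155 (95% counting interval 27.2 to 6150). POLAR, a protein of asymmetric division, stood at 26, 27.6 and 30.8 CPM at 9 DAS and 0.957, 0.745 and 0.745 CPM at 16 DAS (log2 change -5.02 with SE 0.4, adjusted p = 5.1e-09). TMM, a receptor of EPF peptides, stood at 58.6, 42.9 and 46.1 CPM at 9 DAS and 1.28, 3.23 and 2.98 CPM at 16 DAS (log2 change -4.3 with SE 0.36, adjusted p = 1.2e-08), and its partner ER at 137, 159 and 116 CPM at 9 DAS and 37.9, 33.3 and 33.5 CPM at 16 DAS (log2 change -1.97 with SE 0.16, adjusted p = 6.1e-09). BASL (-6.28), MUTE (-5.08) and SPCH (-3.93) also fell, where SPCH starts and MUTE ends the divisions of the lineage. MYB88, which stops divisions of late precursors, stood at 4.73, 5.43 and 7.15 CPM at 9 DAS and 16.9, 22.6 and 17.9 CPM at 16 DAS (log2 change 1.71 with SE 0.32, adjusted p = 0.0002). The 6 guard cell markers summed to 1405 to 1628 CPM at 9 DAS and 2402 to 2762 CPM at 16 DAS, nearly all of it TGG1, a myrosinase, which rose by 0.76 on the log2 scale. KAT1, a potassium channel of guard cells, rose by 1.58 and MYB60 by 1.03, EPF1, a peptide of the lineage, fell by 1.93, and the anion channel SLAC1 was no DEG (0.62). FAMA, a factor of the last lineage step, stood at 20.3 to 25.7 CPM and 21.6 to 23.6 CPM. The early-lineage fall was also present in P21, with 12 members lower and none higher.

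The largest falls of all genes, taken by rule as the 12 with at least 50 reads on average and no overlap, are given next. PDF1, a protodermal factor of young epidermis, stood at 467, 546 and 561 CPM at 9 DAS and 6.38, 5.96 and 15.6 CPM at 16 DAS (log2 change -5.99 with SE 0.34, adjusted p = 1.3e-09). CDEF1, a GDSL lipase that degrades cutin, stood at 61.4, 44.4 and 71.5 CPM at 9 DAS and 0, 0 and 0 CPM at 16 DAS, at least 168-fold higher at 9 DAS when 16 DAS is set to 3 reads. LTL1, another GDSL lipase, stood at 234, 195 and 193 CPM at 9 DAS and 3.51, 1.49 and 3.73 CPM at 16 DAS (log2 change -6.27 with SE 0.36, adjusted p = 1.2e-09). A run of genes on chromosome 4 annotated as lipid-transfer superfamily proteins supplied 5 of the 12. From 11844506 to 11858970 (TAIR10) the tables list 7 loci, of which 6 were tested and all 6 fell, a region singled out after its values were seen. Their summed level was 284.0, 294.6 and 429.1 CPM in the 9 DAS libraries and 2.87, 0.99 and 0.74 CPM in those of 16 DAS. AT4G22505 stood at 38.7, 57.7 and 63.7 CPM at 9 DAS and 0, 0 and 0 CPM at 16 DAS, at least 151-fold higher at 9 DAS, and AT4G22490 at 85.1, 87.4 and 122 CPM at 9 DAS and 2.55, 0.745 and 0.745 CPM at 16 DAS (log2 change -6.07 with SE 0.43, adjusted p = 6.3e-09). AT4G22485 had 502 reads against 1, a ratio of 616 (95% counting interval 110 to 24400). In AT4G22513 and AT4G22517, at least 129-fold and 150-fold higher at 9 DAS, 34.1% and 46.6% of the reads were unique, so their levels are uncertain. The other members of the 12 were AT3G05727, annotated in a family of pollen coat proteins, with 1182 reads against 2 (ratio 725, 95% counting interval 200 to 6000), AT3G05600, an alpha/beta-hydrolase, with 331 against 3, AT4G29030, a putative membrane lipoprotein (-6.01), and LDOX of anthocyanin synthesis. Of the other 5 epidermal markers ATML1 fell (-1.12), CER5 rose (1.62), and PDF2 (-0.58) was no DEG. FDH and LTP1 were no DEGs either and held 183 to 270 and 647 to 828 CPM at 9 DAS and 218 to 249 and 556 to 745 CPM at 16 DAS.

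The listed cytosolic ribosomal protein genes fell in WT by a smaller factor. The list holds 28 genes whose symbols matched a rule and not the whole family. Of 28 tested 12 were lower and none higher (median -0.68), and the list took 0.756% to 1.03% of CPM at 9 DAS and 0.525% to 0.602% at 16 DAS. RPS5A, a subunit gene active in dividing tissue, stood at 471, 404 and 493 CPM at 9 DAS and 234, 227 and 197 CPM at 16 DAS (log2 change -1.05 with SE 0.16, adjusted p = 2.1e-05). PFL, which encodes RPS18A and gives pointed leaves when lost, stood at 281, 227 and 308 CPM at 9 DAS and 133, 144 and 124 CPM at 16 DAS (log2 change -1.02 with SE 0.15, adjusted p = 1.8e-05). RPS15A stood at 426, 368 and 502 CPM at 9 DAS and 228, 251 and 214 CPM at 16 DAS (log2 change -0.9 with SE 0.14, adjusted p = 3e-05), and RPL16A at 40.6, 30.6 and 42.2 CPM at 9 DAS and 21.4, 17.1 and 23.8 CPM at 16 DAS (log2 change -0.9 with SE 0.25, adjusted p = 0.0054). For these genes all 3 libraries of 9 DAS lay above all of 16 DAS, as the rule for naming genes required, with differences of about 2-fold. The count of members that fell was 4 without replicate 3 at 9 DAS, 20 on log2(RPKM + 1) and 1 with glmTreat. The direction did not hold in P21, where none fell, 2 rose and the median was 0.40, and for 17 of the 28 the day change of P21 lay above that of WT by the test of the difference. In P21 RPS5A stood at 233 and 265 CPM at 9 DAS and 222 and 312 CPM at 16 DAS, so that its 9 DAS libraries lay at the level of WT at 16 DAS. In P10, which shares the indexes of WT, 13 members fell, and RPS5A stood at 365, 277 and 357 CPM at 9 DAS and 165, 197 and 153 CPM at 16 DAS. The part of the index in this result was not tested.

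Of 26 ribosome biogenesis factors 5 rose and none fell in WT (median 0.52), a share higher of 19.2% that is near the 18.6% of all genes. OLI2, a nucleolar methyltransferase-like protein, stood at 12.3, 24.7 and 31.8 CPM at 9 DAS and 58, 71.5 and 63.3 CPM at 16 DAS (log2 change 1.47 with SE 0.29, adjusted p = 0.00055), and SWA2, a nucleolar factor, at 19.4, 23.7 and 31.8 CPM at 9 DAS and 58.7, 62.5 and 73 CPM at 16 DAS (log2 change 1.35 with SE 0.24, adjusted p = 0.00011). FIB1, a fibrillarin that overlaps another locus, stood at 110, 94.8 and 161 CPM at 9 DAS and 221, 220 and 215 CPM at 16 DAS (log2 change 0.84 with SE 0.23, adjusted p = 0.0055). APUM24, which acts in rRNA processing, stood at 9.92, 17.8 and 21.1 CPM at 9 DAS and 26.1, 33.3 and 33.5 CPM at 16 DAS (log2 change 0.9 with SE 0.24, adjusted p = 0.0047). FIB1 was no DEG without replicate 1 or 2 at 9 DAS, nor APUM24 without replicate 1. The count was 2 without replicate 1 and 9 without replicate 3 of WT at 9 DAS, and 2 with upper-quartile factors or on log2(RPKM + 1).  In P21 20 members rose (median 1.42), and in P10 3 fell and none rose. Both lists share the telo-box AAACCCTA, in 57.1% of 28 ribosomal protein promoters and 59.3% of 27 promoters of biogenesis factors against 6.22% of all, and the site II letters TGGGCC or TGGGCT, in 78.6% and 77.8% against 21.7%. The promoter of RPS5A is shown because it holds both motifs and overlaps no other gene, the capitals marking telo-box and site II matches, 2 of which overlap.
RPS5A promoter, chr3:3779546-3779795, minus strand: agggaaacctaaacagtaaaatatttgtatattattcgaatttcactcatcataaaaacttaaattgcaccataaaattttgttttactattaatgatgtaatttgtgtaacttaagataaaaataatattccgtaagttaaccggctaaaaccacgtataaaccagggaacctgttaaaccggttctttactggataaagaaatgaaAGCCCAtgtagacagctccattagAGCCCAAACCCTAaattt

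Carbon fixation and photorespiration rose. Of 27 tested genes of the Calvin cycle and Rubisco 17 were higher and none lower (median 0.93), and the list took 4.24% to 6.43% of CPM at 9 DAS and 10.5% to 11.4% at 16 DAS. RBCS1B, a small subunit of Rubisco, stood at 420, 362 and 977 CPM at 9 DAS and 3901.6, 4211.1 and 3335.5 CPM at 16 DAS (log2 change 2.7 with SE 0.42, adjusted p = 0.00024), with 60.2% of its reads unique. RBCS1A, the major small subunit gene, stood at 18327, 16450 and 20986.2 CPM at 9 DAS and 28432.1, 26782.3 and 23436.8 CPM at 16 DAS (log2 change 0.5 with SE 0.14, adjusted p = 0.0072) and missed the fold change threshold. RCA, Rubisco activase, stood at 6180.3, 3711.2 and 8437.3 CPM at 9 DAS and 19940.5, 19635.8 and 20005.3 CPM at 16 DAS (log2 change 1.7 with SE 0.3, adjusted p = 0.00041). FBA1, a plastid aldolase, stood at 750, 535 and 1419.4 CPM at 9 DAS and 4343.5, 4180.8 and 4269.9 CPM at 16 DAS (log2 change 2.24 with SE 0.44, adjusted p = 0.0015), and CP12-2, a regulator of the cycle, at 120, 110 and 194 CPM at 9 DAS and 821, 963 and 773 CPM at 16 DAS (log2 change 2.59 with SE 0.25, adjusted p = 3.8e-07). In each of these genes but RBCS1A the 9 DAS libraries were spread, with replicate 3 the highest, while the 16 DAS libraries lay close together. In P21 15 of the 27 rose and in P10 9.

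Of 17 photorespiration genes, which recover the carbon lost when Rubisco binds oxygen, 14 rose and none fell (median 1.66). CAT2, the leaf catalase that removes peroxisomal hydrogen peroxide, stood at 209, 157 and 562 CPM at 9 DAS and 5435.9, 5863.6 and 5811 CPM at 16 DAS (log2 change 4.2 with SE 0.75, adjusted p = 0.00097). GLDP1 and GLDP2, the P proteins of mitochondrial glycine decarboxylase, stood at 525, 474 and 1034.1 CPM at 9 DAS and 4317.1, 5150.5 and 5852.7 CPM at 16 DAS (log2 change 2.91 with SE 0.41, adjusted p = 0.00012) and at 283, 198 and 543 CPM at 9 DAS and 1946.2, 2104.7 and 2199.8 CPM at 16 DAS (log2 change 2.61 with SE 0.46, adjusted p = 0.00078). GGT2, a peroxisomal aminotransferase, stood at 29.8, 25.2 and 59 CPM at 9 DAS and 248, 327 and 255 CPM at 16 DAS (log2 change 2.85 with SE 0.34, adjusted p = 1.2e-05). The whole list went from 0.777% to 1.22% of CPM up to 3.77% to 3.93%. In P21 13 members rose, in P10 9.

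The light-harvesting and photosystem genes followed at most in part. Of 44 tested 8 rose (18.2%, near the 18.6% of all genes) and 3 fell (6.82%, against 17.3%), with a median of 0.38. The split turned to 2 and 6 on log2(RPKM + 1). Without the fold change threshold it was 21 and 6, where 3936 of all 16499 genes tested rose and 3687 fell. The list held 14.1% to 17.3% of CPM at 9 DAS and 14.1% to 16.5% at 16 DAS. As a share of reads it was lower at 16 DAS, since the TMM factors were larger at 9 DAS. LHCB4.3, a minor antenna protein, stood at 21.7, 13.3 and 35.1 CPM at 9 DAS and 85.8, 95.8 and 104 CPM at 16 DAS (log2 change 1.99 with SE 0.34, adjusted p = 0.00029), and LHCB7, a rare antenna form, at 20.8, 16.8 and 26.8 CPM at 9 DAS and 58.7, 77.4 and 74.5 CPM at 16 DAS (log2 change 1.69 with SE 0.22, adjusted p = 3.8e-06). LHCA6, which joins photosystem I to the NDH complex, stood at 146, 109 and 161 CPM at 9 DAS and 261, 303 and 238 CPM at 16 DAS (log2 change 0.95 with SE 0.16, adjusted p = 7.3e-05). PSAH-1 of photosystem I stood at 321, 274 and 241 CPM at 9 DAS and 587, 540 and 596 CPM at 16 DAS (log2 change 1.04 with SE 0.14, adjusted p = 4.2e-06), with 52.5% of its reads unique. Among the major antenna genes LHCB1.4 stood at 4813.9, 5311.9 and 2597.7 CPM at 9 DAS and 1162.2, 950 and 1014.2 CPM at 16 DAS (log2 change -2.02 with SE 0.35, adjusted p = 0.00042) and LHCB1.1 at 14330.5, 12689.4 and 12263.4 CPM at 9 DAS and 8456.2, 6850.4 and 6647.8 CPM at 16 DAS (log2 change -0.84 with SE 0.15, adjusted p = 0.00013), with 83.5% and 77.3% of reads unique among near copies. In P21 neither was a DEG (LHCB1.4 -0.23, LHCB1.1 -0.03). In P10 10 of the 44 fell, and for 20 the change of P10 lay below that of WT by the test of the difference.

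Chlorophyll synthesis shifted in both directions, 4 of 26 genes being higher (15.4%, against 18.6% of all genes) and 9 lower (median -0.49), or 14 lower on log2(RPKM + 1). PORB, the light-dependent protochlorophyllide oxidoreductase of young leaves, stood at 1347.6, 2509.4 and 344 CPM at 9 DAS and 50.4, 46.9 and 106 CPM at 16 DAS (log2 change -4.41 with SE 0.85, adjusted p = 0.0016). PORA, its seedling form, stood at 24.1, 34.1 and 2.15 CPM at 9 DAS and 0.957, 0.496 and 0 CPM at 16 DAS (log2 change -4.95 with SE 1.52, adjusted p = 0.021), a call lost without replicate 2 at 9 DAS or without replicate 1 or 2 at 16 DAS. HEME1 and HEMC, enzymes of the porphyrin part of the path, stood at 425, 443 and 345 CPM at 9 DAS and 150, 156 and 145 CPM at 16 DAS (log2 change -1.43 with SE 0.15, adjusted p = 2.2e-07) and at 537, 551 and 501 CPM at 9 DAS and 219, 262 and 200 CPM at 16 DAS (log2 change -1.22 with SE 0.17, adjusted p = 9.7e-06). GLK1, a transcription factor of chloroplast development, stood at 103, 96.2 and 89.4 CPM at 9 DAS and 342, 349 and 376 CPM at 16 DAS (log2 change 1.89 with SE 0.22, adjusted p = 1.3e-06), and GLK2 (1.58), GUN5 (1.53) and GUN4 (1.18) also rose. In P21 1 member fell and 6 rose, and the falls of HEME1 and HEMC were absent there (-0.18 and 0.06). Of 33 genes of plastid gene expression and biogenesis 7 rose and 6 fell, or 7 and 13 on log2(RPKM + 1). The first counts, 21.2% and 18.2%, were near the 18.6% and 17.3% of all genes. SIG5, a sigma factor of plastid transcription that blue light and stress induce, stood at 12.3, 7.4 and 21.1 CPM at 9 DAS and 293, 398 and 341 CPM at 16 DAS (log2 change 4.62 with SE 0.51, adjusted p = 1.7e-05). SIG1 stood at 91.7, 86.4 and 101 CPM at 9 DAS and 363, 381 and 314 CPM at 16 DAS (log2 change 1.92 with SE 0.32, adjusted p = 0.00026), the plastid protease VAR1 at 387, 327 and 431 CPM at 9 DAS and 1130.9, 1340.7 and 1385.3 CPM at 16 DAS (log2 change 1.75 with SE 0.17, adjusted p = 5e-08) and ARC5, the dynamin of plastid division, at 81.3, 66.1 and 65.1 CPM at 9 DAS and 227, 219 and 235 CPM at 16 DAS (log2 change 1.68 with SE 0.17, adjusted p = 1.2e-07). PTAC14, a part of the plastid transcription complex, stood at 119, 123 and 117 CPM at 9 DAS and 67.9, 65.3 and 48.4 CPM at 16 DAS (log2 change -0.96 with SE 0.18, adjusted p = 0.00016).

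Of 26 genes of sucrose export and starch 14 rose and 1 fell (median 0.84), and 9 rose on log2(RPKM + 1). SWEET11, a sucrose exporter of phloem parenchyma, stood at 19.4, 16.3 and 22.2 CPM at 9 DAS and 357, 395 and 372 CPM at 16 DAS (log2 change 4.27 with SE 0.2, adjusted p = 4.7e-12), and SUC2, the transporter that loads sucrose into companion cells, at 39.7, 33.1 and 58.3 CPM at 9 DAS and 358, 328 and 330 CPM at 16 DAS (log2 change 2.94 with SE 0.19, adjusted p = 2.3e-10). SUS1, a sucrose synthase, stood at 1.42, 2.96 and 2.15 CPM at 9 DAS and 93.7, 71.5 and 82.7 CPM at 16 DAS (log2 change 5.22 with SE 0.36, adjusted p = 1.4e-09). SPS4F, a sucrose-phosphate synthase, stood at 13.7, 9.87 and 41.9 CPM at 9 DAS and 570, 820 and 595 CPM at 16 DAS (log2 change 4.88 with SE 0.78, adjusted p = 0.00044), and BAM3, a plastid beta-amylase, at 26.9, 54.3 and 107 CPM at 9 DAS and 1158.7, 1539 and 1340.6 CPM at 16 DAS (log2 change 4.41 with SE 0.64, adjusted p = 0.00023). For SWEET11, SUC2 and SUS1 the 3 libraries of a day lay within about 2-fold of each other, while SPS4F and BAM3 were highest in replicate 3 among the 9 DAS libraries. cINV1, a cytosolic invertase, stood at 126, 100 and 118 CPM at 9 DAS and 48.8, 42.2 and 56.6 CPM at 16 DAS (log2 change -1.24 with SE 0.17, adjusted p = 4.1e-06). All 5 phloem markers rose, and their sum went from 94.3 to 138 CPM up to 1095 to 1237 CPM. PP2-A1, a phloem lectin, stood at 18.9, 17.3 and 19 CPM at 9 DAS and 360, 412 and 318 CPM at 16 DAS (log2 change 4.3 with SE 0.18, adjusted p = 4.4e-13), and APL, the factor of phloem identity, at 8.98, 10.9 and 12.2 CPM at 9 DAS and 46.9, 44.2 and 38.7 CPM at 16 DAS (log2 change 2.02 with SE 0.26, adjusted p = 2.5e-06). Of 17 vascular and secondary wall genes 8 rose and none fell. They were SUC2, APL and PP2-A1, given above, and CCR1 of lignin synthesis (2.03), CAD4 (1.94), HCT (1.47), CAD5 (1.26) and CCOAOMT1 (1.22). CCR1 overlaps another locus and has 50.8% of its reads unique. The other members tested, such as IRX3 (-0.11), LAC4 (0.18), XCP1 (0.47) and IRX9 (0.84), were no DEGs. SWEET11, SUC2 and PP2-A1 rose in P21 too, by 2.3, 1.63 and 2.06, but less than in WT by the test of the difference, and 10 members of the sugar list and 10 of the vascular list rose there.

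Water channels and cell walls changed in part. Of 18 aquaporins 10 rose and 3 fell (median 0.84). TIP2;2 of the vacuolar membrane stood at 18.4, 10.4 and 16.8 CPM at 9 DAS and 613, 523 and 643 CPM at 16 DAS (log2 change 5.27 with SE 0.38, adjusted p = 1e-07). PIP1A of the plasma membrane stood at 178, 126 and 177 CPM at 9 DAS and 1523.4, 1473.5 and 1432.2 CPM at 16 DAS (log2 change 3.2 with SE 0.19, adjusted p = 4.8e-11). RD28 and PIP2B, neighbouring near copies with 83.4% and 84.3% of reads unique, rose by 3.74 and 2.86 on the log2 scale. PIP2;8 stood at 47.7, 33.6 and 42.6 CPM at 9 DAS and 8.29, 7.69 and 7.45 CPM at 16 DAS (log2 change -2.39 with SE 0.26, adjusted p = 3.5e-07). In P21 8 aquaporins rose and 3 fell, and in P10 6 rose and 6 fell. Of 14 alpha-expansins, which loosen walls, 4 rose and 1 fell, or 3 fell without replicate 1 at 16 DAS. EXPA11 stood at 5.67, 9.38 and 6.08 CPM at 9 DAS and 41.1, 68 and 37.3 CPM at 16 DAS (log2 change 2.83 with SE 0.43, adjusted p = 0.0001) and EXPA1, a guard cell and leaf expansin, at 73.2, 84.4 and 77.3 CPM at 9 DAS and 292, 542 and 174 CPM at 16 DAS (log2 change 2.11 with SE 0.35, adjusted p = 0.00028). EXPA15 stood at 14.2, 33.1 and 25 CPM at 9 DAS and 3.19, 10.9 and 2.98 CPM at 16 DAS (log2 change -1.9 with SE 0.46, adjusted p = 0.003). The xyloglucan enzymes (XTH) were split evenly, 5 of 17 in each direction. XTH31 stood at 6.14, 4.44 and 8.23 CPM at 9 DAS and 213, 294 and 189 CPM at 16 DAS (log2 change 5.17 with SE 0.33, adjusted p = 4.5e-09), and XTH15 at 61.9, 34.1 and 29 CPM at 9 DAS and 0.638, 1.24 and 6.71 CPM at 16 DAS (log2 change -4.36 with SE 0.66, adjusted p = 0.00015). The cellulose synthase list also holds genes that are not synthases (KOR1, COB, CSI1, CTL1 and IRX6). Of its 13 tested members CESA5 alone was a DEG, at 75.1, 76.5 and 111 CPM at 9 DAS and 217, 270 and 212 CPM at 16 DAS (log2 change 1.41 with SE 0.19, adjusted p = 4.8e-06). In the cuticle and wax list 7 of 25 rose (28%, against 18.6% of all genes) and 4 fell (16%, near the 17.3%). CER6 and KCS1, elongases of wax fatty acids, stood at 132, 108 and 156 CPM at 9 DAS and 599, 509 and 620 CPM at 16 DAS (log2 change 2.13 with SE 0.18, adjusted p = 1.3e-08) and at 27.9, 17.3 and 36.1 CPM at 9 DAS and 114, 103 and 139 CPM at 16 DAS (log2 change 2.1 with SE 0.25, adjusted p = 2.5e-06). CER8, an acyl-CoA synthetase, stood at 121, 138 and 80.8 CPM at 9 DAS and 13.1, 22.1 and 15.6 CPM at 16 DAS (log2 change -2.71 with SE 0.34, adjusted p = 1.5e-05), and MYB106, a regulator of cuticle genes, fell by 4.88.

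Of the 36 lists only aliphatic glucosinolate synthesis had every tested member higher. These sulphur compounds of the cabbage family deter herbivores, the aliphatic ones being made from methionine and the indole ones from tryptophan. All 18 tested genes of the aliphatic list were DEGs and higher at 16 DAS (median 2.81). The days overlapped for none of the 18, but 5701 of the 5937 DEGs and 8992 of the 16499 genes tested had no overlap either. The count of DEGs was the same with upper-quartile factors, with DESeq2 and on log2(RPKM + 1). UGT74C1 and AOP2, also chosen for the list, were not among the genes tested. The factor MYB28 rose by 1.62, MYB29 by 1.52 and MYB76 by 1.99. In chain elongation, MAM3 stood at 0, 0 and 0 CPM at 9 DAS and 28.4, 32.3 and 75.3 CPM at 16 DAS, at least 105-fold higher at 16 DAS when 9 DAS is set to 3 reads over its libraries, and MAM1 rose by 2.46. The entry enzymes of core synthesis were CYP79F1, at 29.3, 29.1 and 30.4 CPM at 9 DAS and 333, 329 and 471 CPM at 16 DAS (log2 change 3.67 with SE 0.5, adjusted p = 0.00011), and its near copy CYP79F2, at 1.42, 0 and 4.29 CPM at 9 DAS and 20.7, 32.8 and 40.2 CPM at 16 DAS (log2 change 3.83 with SE 0.5, adjusted p = 4.8e-06). CYP83A1, the next enzyme, rose by 3.19 and the sulphotransferases SOT17 and SOT18 by 3.15 and 2.7. FMO GS-OX1, which oxidises the side chain, stood at 5.2, 6.91 and 12.5 CPM at 9 DAS and 92.1, 94.1 and 115 CPM at 16 DAS (log2 change 3.55 with SE 0.27, adjusted p = 2.8e-09). The list went from 0.0372% to 0.0496% of CPM up to 0.258% to 0.327%. In P21 all 18 had a positive change but 7 were DEGs (median 0.95), and for 5 (MYB28, CYP83A1, SOT17, SOT18 and FMO GS-OX1) the rise was smaller than in WT by the test of the difference. In P10 15 were DEGs (median 1.44), and IMD1, CYP83A1, SOT17 and SOT18 had a smaller change than in WT by that test. P21 stood at 34.5 and 65.1 CPM at 9 DAS and 169 and 92.2 CPM at 16 DAS for CYP79F1. Of 11 indole path genes 8 rose and none fell (median 2.12). CYP79B2 and CYP79B3, which convert tryptophan, stood at 9.45, 11.8 and 17.2 CPM at 9 DAS and 70.8, 92.1 and 82.7 CPM at 16 DAS (log2 change 2.65 with SE 0.37, adjusted p = 4.7e-05) and at 16.5, 19.2 and 39.7 CPM at 9 DAS and 171, 140 and 165 CPM at 16 DAS (log2 change 2.63 with SE 0.51, adjusted p = 0.0014). CYP83B1 stood at 47.3, 47.4 and 92.6 CPM at 9 DAS and 326, 339 and 347 CPM at 16 DAS (log2 change 2.42 with SE 0.37, adjusted p = 0.00014). In P21 2 of the 11 rose, and the change of CYP79B2 there was 0.32.

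**Figure D3:**
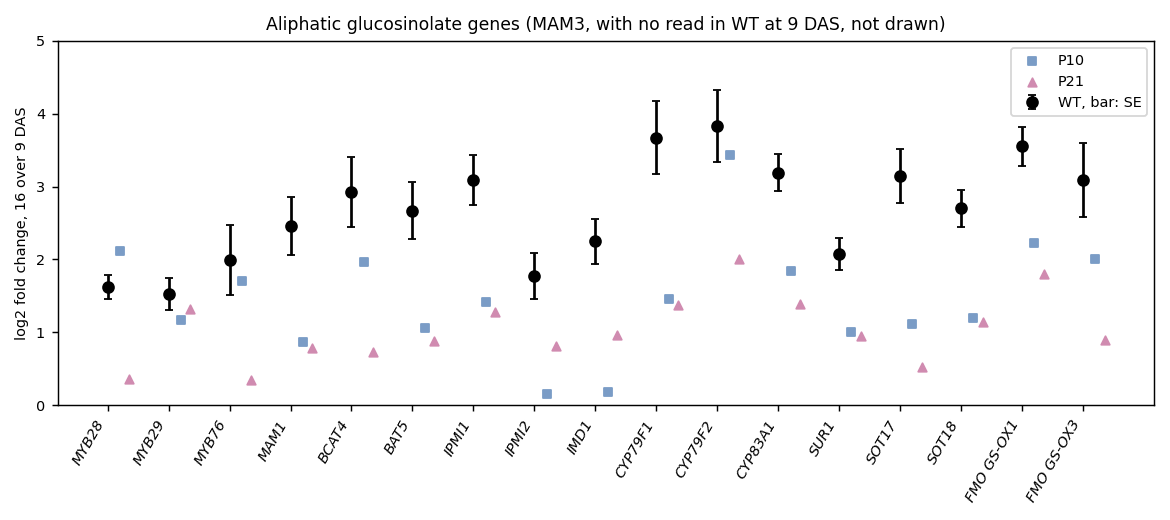
Day change of 17 aliphatic glucosinolate genes on the log2 scale (y axis) in WT (black, bar: SE), P10 (squares) and P21 (triangles). WT values run from 1.52 for MYB29 to 3.83 for CYP79F2, and MYB28 is the one gene for which P10 (2.12) lies above WT (1.62).

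Of 23 flavonoid genes tested 5 rose (21.7%, near the 18.6% of all genes) and 7 fell. DFR, which makes leucoanthocyanidins, stood at 49.1, 20.7 and 75.8 CPM at 9 DAS and 0.638, 0.745 and 1.49 CPM at 16 DAS (log2 change -5.81 with SE 1.17, adjusted p = 0.002), and LDOX, the next enzyme, had 318 reads over the 9 DAS libraries and 1 over those of 16 DAS (ratio 390, 95% counting interval 69.5 to 15500). The factors TT8 (-4.21) and EGL3 (-3.07) also fell, as did UF3GT (-4.96) and 5MAT (-7.37), while TT19 was no DEG (-1.57, adjusted p = 0.051). Among the entry genes 4CL1, which activates coumarate, stood at 63.8, 61.2 and 125 CPM at 9 DAS and 522, 567 and 479 CPM at 16 DAS (log2 change 2.64 with SE 0.29, adjusted p = 3.7e-06), and PAL1 (2.24) and PAL2 (2.55) rose. TT4, TT5, F3H, TT7 and FLS1 between them were no DEGs, and of the flavonol factors MYB11 rose (4.54) and MYB111 fell (-2.27). The count of members that rose was 2 without replicate 1 or 2 at 9 DAS or replicate 2 at 16 DAS, 3 without replicate 3 at 16 DAS and 8 without replicate 3 at 9 DAS. In P21 DFR fell as in WT (-8.03). In P10 DFR stood at 234, 52.1 and 105 CPM at 9 DAS and 146, 133 and 417 CPM at 16 DAS and was no DEG, and its change lay above that of WT by 6.64 (adjusted p = 0.023).

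Abscisic acid (ABA) and drought markers were higher in the untreated WT leaves at 16 DAS. Of 28 tested 19 rose and 2 fell (median 2.22), and 1 fell with DESeq2 or without replicate 2 or 3 of either day. RD20, a caleosin, stood at 3.31, 3.46 and 12.9 CPM at 9 DAS and 167, 144 and 211 CPM at 16 DAS (log2 change 4.63 with SE 0.78, adjusted p = 0.00064). RD26, a NAC factor, stood at 5.67, 4.94 and 5.01 CPM at 9 DAS and 66, 45.7 and 93.1 CPM at 16 DAS (log2 change 3.67 with SE 0.34, adjusted p = 1e-07), and COR15A, a chloroplast protein of cold acclimation, at 18.4, 39 and 14 CPM at 9 DAS and 280, 265 and 238 CPM at 16 DAS (log2 change 3.48 with SE 0.5, adjusted p = 0.00017). ERD10, a dehydrin, stood at 16.1, 29.1 and 34 CPM at 9 DAS and 268, 214 and 315 CPM at 16 DAS (log2 change 3.31 with SE 0.48, adjusted p = 0.00016). The synthesis gene NCED3 rose by 2.99 and the phosphatases ABI1 and ABI2, which are induced by ABA and repress its signal, by 2.38 and 1.29. PDH1, a proline dehydrogenase, stood at 267, 234 and 372 CPM at 9 DAS and 19.8, 11.4 and 35 CPM at 16 DAS (log2 change -3.84 with SE 0.39, adjusted p = 4.7e-06). The days did not overlap for any of the genes given here by library, as the rule for naming genes required. In P10 26 members rose (median 3.6) and in P21 11 (median 0.75). COR15A stood at 131 and 114 CPM at 9 DAS and 111 and 74.1 CPM at 16 DAS in P21, and its day change lay below that of WT by 3.88.

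Cytokinin response genes rose, 10 of 14 being higher and 1 lower (median 1.28). The type-A response regulators, which are induced by cytokinin and dampen its signal, supplied 7 of the 10. The count of members that rose was 7 to 9 when a WT library was left out. It was 6 with glmTreat or on log2(RPKM + 0.1). ARR6 stood at 4.73, 9.87 and 7.15 CPM at 9 DAS and 48.5, 29.3 and 23.1 CPM at 16 DAS (log2 change 2.24 with SE 0.46, adjusted p = 0.00096), ARR15 at 3.31, 5.43 and 5.37 CPM at 9 DAS and 22.3, 19.4 and 11.9 CPM at 16 DAS (log2 change 1.95 with SE 0.36, adjusted p = 0.00017) and ARR5 at 0.945, 4.44 and 5.37 CPM at 9 DAS and 14, 8.69 and 11.2 CPM at 16 DAS (log2 change 1.6 with SE 0.52, adjusted p = 0.016). ARR5 was no DEG without replicate 1 of either day. IPT3, a synthesis enzyme of the phloem that nitrate induces, had 1 read over the 9 DAS libraries and 236 over those of 16 DAS (ratio 192, 95% counting interval 34.2 to 7630). LOG8, an activating enzyme, stood at 75.1, 51.8 and 59 CPM at 9 DAS and 17.5, 27.8 and 21.6 CPM at 16 DAS (log2 change -1.46 with SE 0.19, adjusted p = 3.2e-06). In P21 10 members rose (median 2.01), while in P10 5 rose and 3 fell, and ARR15 stood at 4.56, 2.74 and 3.13 CPM at 9 DAS and 0, 1.92 and 1.19 CPM at 16 DAS there.

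Nitrate assimilation rose with 12 of 15 members higher and 1 lower (median 1.7). NIA2, the main nitrate reductase, stood at 176, 146 and 377 CPM at 9 DAS and 3432.3, 2059.3 and 2731.9 CPM at 16 DAS (log2 change 3.55 with SE 0.47, adjusted p = 9.5e-05), and NIR1, nitrite reductase, at 61.4, 95.3 and 85.1 CPM at 9 DAS and 705, 649 and 516 CPM at 16 DAS (log2 change 2.95 with SE 0.17, adjusted p = 5.9e-11). NRT1.5 and NRT1.7, nitrate transporters of the vasculature, stood at 0, 2.96 and 6.08 CPM at 9 DAS and 37, 40.2 and 42.5 CPM at 16 DAS (log2 change 3.59 with SE 0.43, adjusted p = 3.1e-06) and at 10.4, 15.3 and 18.2 CPM at 9 DAS and 112, 158 and 125 CPM at 16 DAS (log2 change 3.16 with SE 0.31, adjusted p = 5.8e-07). GLN1;3, a cytosolic glutamine synthetase, stood at 39.7, 48.9 and 39 CPM at 9 DAS and 6.38, 7.2 and 2.98 CPM at 16 DAS (log2 change -2.8 with SE 0.25, adjusted p = 1.9e-08). In P21 12 members rose as well. In iron and copper homeostasis 8 of 19 rose and 1 fell. FRO7, the ferric reductase of chloroplasts, stood at 8.03, 9.87 and 17.5 CPM at 9 DAS and 325, 416 and 390 CPM at 16 DAS (log2 change 4.96 with SE 0.31, adjusted p = 2.5e-09), with 76.9% of its reads unique. OPT3, a phloem transporter of iron and copper, stood at 130, 79 and 226 CPM at 9 DAS and 742, 933 and 1061.1 CPM at 16 DAS (log2 change 2.65 with SE 0.37, adjusted p = 9.4e-05). NAS4, a nicotianamine synthase, and PYE, a factor of the iron response, both rose by 2.62. FER4, a ferritin, stood at 20.3, 29.1 and 22.2 CPM at 9 DAS and 15.3, 13.7 and 9.69 CPM at 16 DAS (log2 change -0.84 with SE 0.31, adjusted p = 0.034), a call lost without replicate 2 at 9 DAS or replicate 2 or 3 at 16 DAS.

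Other hormone lists were mixed. Of 33 auxin genes 7 rose (21.2%, near the 18.6% of all genes) and 10 fell (30.3%, against 17.3%), with a median of -0.10. GH3.6 and GH3.5, which conjugate auxin to amino acids, stood at 66.6, 36.5 and 37.6 CPM at 9 DAS and 6.7, 5.96 and 3.73 CPM at 16 DAS (log2 change -3.01 with SE 0.35, adjusted p = 1.2e-06) and at 31.2, 18.8 and 20 CPM at 9 DAS and 6.06, 3.47 and 7.45 CPM at 16 DAS (log2 change -2.14 with SE 0.37, adjusted p = 7.4e-05). LAX2, an influx carrier, stood at 32.1, 21.2 and 27.5 CPM at 9 DAS and 5.42, 5.21 and 3.73 CPM at 16 DAS (log2 change -2.42 with SE 0.32, adjusted p = 3.7e-06). IAA1, a repressor of the response, stood at 5.2, 2.96 and 5.01 CPM at 9 DAS and 49.4, 57.1 and 38 CPM at 16 DAS (log2 change 3.45 with SE 0.26, adjusted p = 2.8e-09). PID, the kinase that the lines overexpress, stood at 4.73, 5.92 and 5.37 CPM at 9 DAS and 3.19, 4.22 and 3.73 CPM at 16 DAS in WT (log2 change -0.51 with SE 0.29, adjusted p = 0.23) and was no DEG. Among gibberellin genes 3 of 19 rose and 6 fell. The DELLA repressor GAI stood at 65.7, 70.1 and 64 CPM at 9 DAS and 18.8, 20.4 and 14.9 CPM at 16 DAS (log2 change -1.85 with SE 0.17, adjusted p = 4.3e-08), and GASA1 at 27.4, 26.7 and 29.7 CPM at 9 DAS and 406, 281 and 351 CPM at 16 DAS (log2 change 3.62 with SE 0.26, adjusted p = 3.9e-09). GASA4 stood at 208, 348 and 86.6 CPM at 9 DAS and 45.9, 63 and 41 CPM at 16 DAS (log2 change -2.07 with SE 0.56, adjusted p = 0.011), with replicate 2 the highest at 9 DAS. In the jasmonate list 7 of 18 rose and 3 fell, or 5 fell without replicate 3 at 16 DAS. AOS, an enzyme of its synthesis, stood at 54.3, 57.3 and 67.2 CPM at 9 DAS and 230, 214 and 272 CPM at 16 DAS (log2 change 1.99 with SE 0.17, adjusted p = 8.2e-09), and the repressor JAZ9 at 32.6, 33.1 and 36.5 CPM at 9 DAS and 91.8, 101 and 92.4 CPM at 16 DAS (log2 change 1.48 with SE 0.22, adjusted p = 1.9e-05). VSP2, a storage protein that jasmonate induces, fell by 4.32. Of 13 salicylic acid and defence genes 3 rose and 2 fell (23.1% and 15.4%, against 18.6% and 17.3% of all genes). Without replicate 2 at 16 DAS 5 rose, while 1 fell without it or replicate 1. PAD4 stood at 5.67, 4.94 and 5.72 CPM at 9 DAS and 16.9, 23.3 and 26.8 CPM at 16 DAS (log2 change 2.0 with SE 0.28, adjusted p = 8.6e-06) and PR5 at 3.78, 2.96 and 5.01 CPM at 9 DAS and 10.2, 14.4 and 21.6 CPM at 16 DAS (log2 change 1.88 with SE 0.39, adjusted p = 0.00046). BAK1, a co-receptor kinase, stood at 33.5, 35.5 and 24.7 CPM at 9 DAS and 17.9, 16.9 and 14.9 CPM at 16 DAS (log2 change -0.89 with SE 0.24, adjusted p = 0.0052). The change of PR5 in P10 was -4.4, lower than that of WT by the test of the difference.

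Shoot maturation and senescence genes moved singly. Of 14 SPL and AP2-type factors of phase change 4 rose and 3 fell, or 2 and 3 on log2(RPKM + 1). SPL4 stood at 6.14, 1.97 and 4.65 CPM at 9 DAS and 33.2, 22.1 and 35 CPM at 16 DAS (log2 change 2.77 with SE 0.34, adjusted p = 1.4e-06), and SPL9 and SPL15 fell by 1.57 and 2.07. TOE1, an AP2-type repressor of flowering, stood at 73.7, 76 and 78 CPM at 9 DAS and 151, 155 and 148 CPM at 16 DAS (log2 change 0.99 with SE 0.18, adjusted p = 0.00014). Among 19 genes of sugar starvation and senescence 5 rose and 4 fell. NAP, a NAC factor of senescence, stood at 1.89, 2.96 and 2.86 CPM at 9 DAS and 85.4, 64.5 and 64.1 CPM at 16 DAS (log2 change 4.76 with SE 0.54, adjusted p = 7.3e-06), and SGR1, which starts chlorophyll breakdown, at 15.6, 14.8 and 16.1 CPM at 9 DAS and 36.3, 36.2 and 49.9 CPM at 16 DAS (log2 change 1.36 with SE 0.24, adjusted p = 0.00011). SWEET15, also known as SAG29, stood at 5.2, 1.97 and 20.7 CPM at 9 DAS and 89.6, 86.6 and 90.9 CPM at 16 DAS (log2 change 3.15 with SE 0.69, adjusted p = 0.0034). DIN6, an asparagine synthetase that darkness and sugar shortage induce, stood at 248, 313 and 96.6 CPM at 9 DAS and 2.23, 1.99 and 31.3 CPM at 16 DAS (log2 change -4.72 with SE 1.04, adjusted p = 0.0036). SAG12, a cysteine protease of late senescence, had no read in any of the 6 libraries.

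The 12 largest rises of all genes, by the same rule, include MAM3, given above. AT1G67865, an uncharacterized protein, stood at 0.473, 1.48 and 1.43 CPM at 9 DAS and 447, 463 and 395 CPM at 16 DAS (log2 change 8.5 with SE 0.36, adjusted p = 3.5e-12). AT1G23130, annotated in the polyketide cyclase and lipid transport superfamily, stood at 16.1, 19.7 and 23.3 CPM at 9 DAS and 1201.7, 1264 and 1183.4 CPM at 16 DAS (log2 change 5.94 with SE 0.24, adjusted p = 4.4e-13). AT1G24147, uncharacterized, stood at 0, 0 and 0 CPM at 9 DAS and 22.3, 49.9 and 50.7 CPM at 16 DAS, at least 94.7-fold higher at 16 DAS. UMAMIT17, of an amino acid transporter family, stood at 0.945, 0 and 1.07 CPM at 9 DAS and 104, 103 and 95.4 CPM at 16 DAS (log2 change 7.05 with SE 0.41, adjusted p = 2.8e-10). LEA3, a late embryogenesis abundant protein, stood at 2.36, 3.46 and 11.8 CPM at 9 DAS and 487, 649 and 487 CPM at 16 DAS (log2 change 6.42 with SE 0.67, adjusted p = 1.7e-05). cPT4, a cis-prenyltransferase that overlaps another locus, stood at 1.89, 0 and 15.7 CPM at 9 DAS and 434, 473 and 525 CPM at 16 DAS (log2 change 6.18 with SE 0.88, adjusted p = 0.0002). CRK18, a receptor-like kinase, stood at 0.945, 1.48 and 1.43 CPM at 9 DAS and 52.9, 96.1 and 70.8 CPM at 16 DAS (log2 change 5.78 with SE 0.54, adjusted p = 8.9e-07). AT2G32870 (TRAF-like), AT3G24460 (a Serinc-domain protein) and AT1G01390 (a glycosyltransferase) rose by 6.92, 6.11 and 6.34, the last from 3 reads over the 9 DAS libraries. PCC1, a small protein under clock and pathogen control, had 1 read over the 9 DAS libraries and 335 over those of 16 DAS, but 35.7% of its reads were unique and its call was lost without any one of the 3 libraries of 9 DAS or without replicate 3 at 16 DAS. In P21 AT1G67865 rose by 5.39 and AT1G23130 by 2.81, both less than in WT by the test of the difference.

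Clock genes varied widely among the WT libraries of 9 DAS. LHY, a factor that peaks at dawn, stood at 67.1, 3.95 and 344 CPM at 9 DAS and 640, 884 and 709 CPM at 16 DAS (log2 change 2.41 with SE 1.25, adjusted p = 0.14). Its partner CCA1 stood at 78.9, 26.2 and 225 CPM at 9 DAS and 588, 672 and 614 CPM at 16 DAS (log2 change 2.49 with SE 0.74, adjusted p = 0.018). GI, which peaks late in the day, stood at 6.62, 67.1 and 2.86 CPM at 9 DAS and 15.3, 30.8 and 38 CPM at 16 DAS (log2 change 0.14 with SE 0.99, adjusted p = 0.92). PRR5, which peaks in the afternoon, stood at 4.25, 48.9 and 0 CPM at 9 DAS and 0, 0.745 and 2.98 CPM at 16 DAS (log2 change -4.25 with SE 2.09, adjusted p = 0.12), and GRP7, an RNA-binding protein of the evening, at 134, 1323.8 and 27.9 CPM at 9 DAS and 30.6, 62 and 95.4 CPM at 16 DAS (log2 change -3.02 with SE 1.52, adjusted p = 0.13). Replicate 2 at 9 DAS was lowest in the dawn genes and highest in GI, PRR5 and GRP7, and replicate 3 was the reverse. The 16 DAS libraries had high LHY and CCA1 in all 3. Without replicate 2 at 9 DAS GI changed by 2.54 (adjusted p = 0.057) and GRP7 by -0.43 (adjusted p = 0.83), and without replicate 3 LHY changed by 4.38 (adjusted p = 0.034). Of 22 clock genes 8 rose and 3 fell, or 5 rose without replicate 1 and 5 fell without replicate 3 of 9 DAS. RVE1, a morning factor, stood at 22.7, 11.8 and 80.5 CPM at 9 DAS and 268, 352 and 280 CPM at 16 DAS (log2 change 2.93 with SE 0.79, adjusted p = 0.011), CDF1, a repressor of CONSTANS, at 17, 14.8 and 25.8 CPM at 9 DAS and 99.8, 151 and 86.4 CPM at 16 DAS (log2 change 2.54 with SE 0.26, adjusted p = 2.7e-07) and PRR9, with 60.2% of its reads unique, at 8.51, 12.8 and 3.22 CPM at 9 DAS and 33.8, 60.6 and 35 CPM at 16 DAS (log2 change 2.48 with SE 0.53, adjusted p = 0.0021). ELF3, of the evening complex, stood at 36.4, 61.7 and 28.3 CPM at 9 DAS and 9.25, 5.21 and 5.96 CPM at 16 DAS (log2 change -2.6 with SE 0.4, adjusted p = 7.8e-05). CCA1 was no DEG without replicate 1 at 9 DAS (2.27, adjusted p = 0.067). In P21 CDF1 and PRR9 rose and ELF3 fell, while CCA1 and RVE1 did not pass the test (1.71 and 2.02). The evening element AAAATATCT was in 30.4% of 23 clock promoters against 2.82% of all. The part of the hour of harvest in the other results was not tested.

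**Figure D4:**
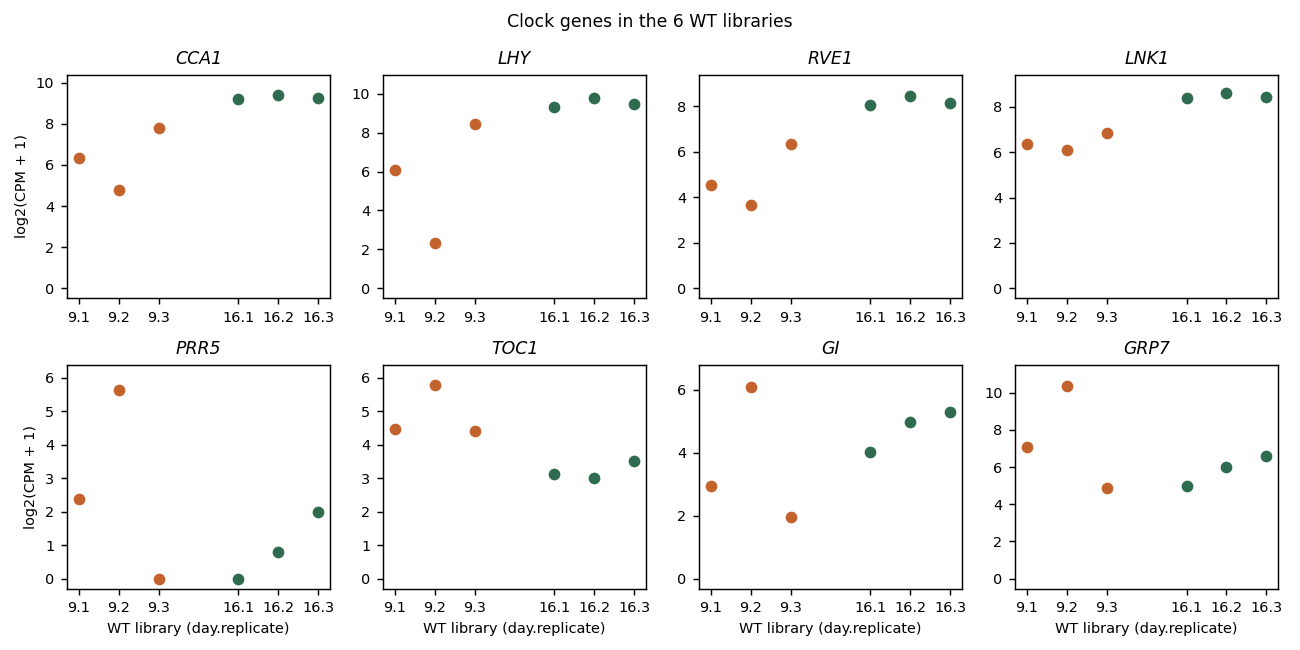
Level of 8 clock genes (y axis log2(CPM + 1)) in the WT libraries, written as day and replicate on the x axis. Library 9.2 is lowest for LHY (3.95 CPM) and highest for GI (67.1 CPM), and the 16 DAS libraries lie close together for LHY (640 to 884 CPM).

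The plot of list medians sets the genotypes side by side as a description, with no test of a median. Medians near 0, as for plastid gene expression (-0.02 in WT and 0.2 in P21), lie within the shift that another scaling makes.

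**Figure D5:**
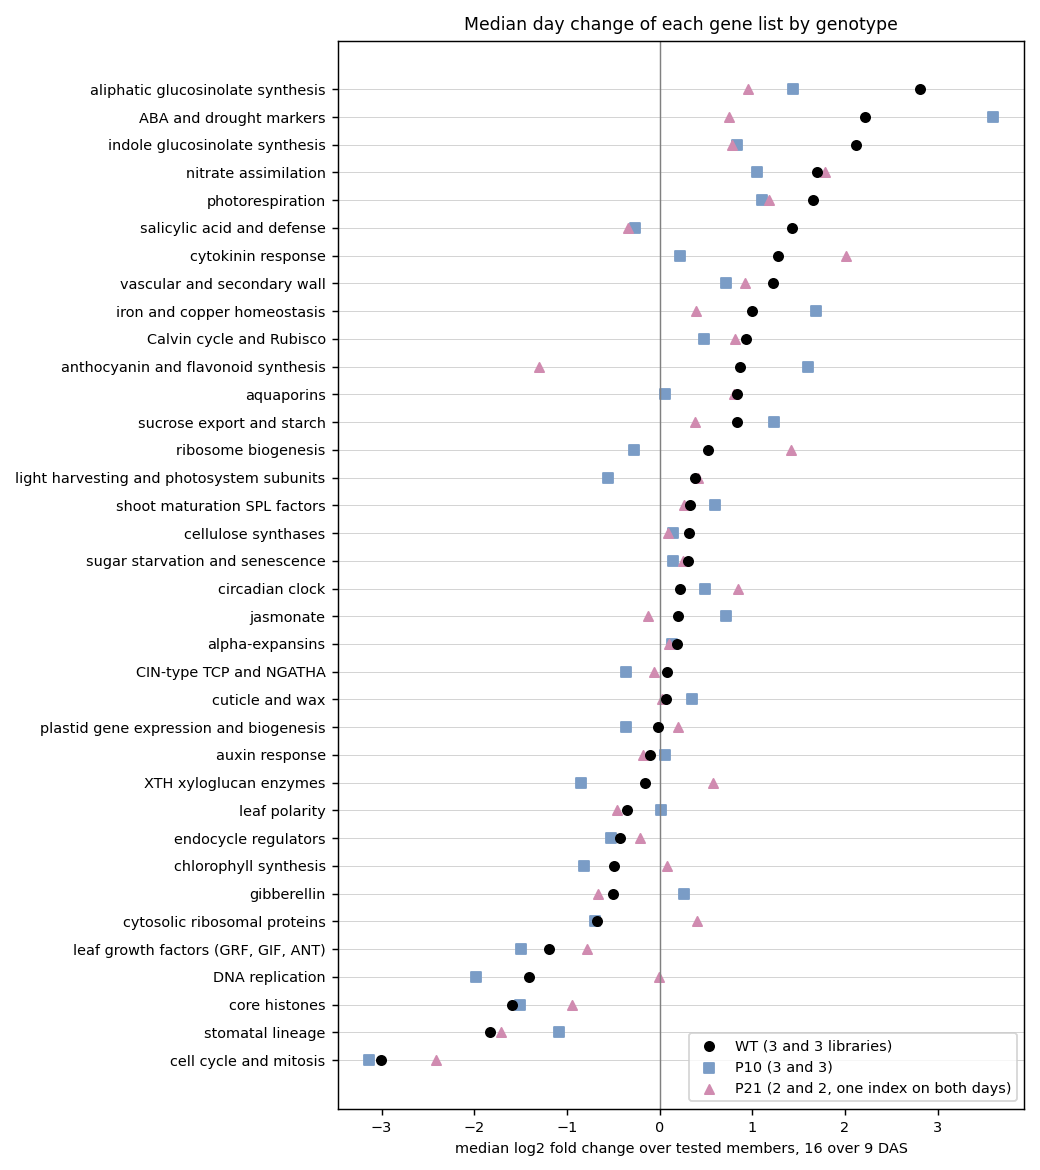
Median log2 fold change, 16 over 9 DAS, of the tested members of each list (x axis) in WT (circles), P10 (squares) and P21 (triangles). The cell cycle lies at -3.01 in WT and -2.41 in P21, while DNA replication lies at -1.41 in WT and -0.01 in P21.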

How the data were processed

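Whole first leaves of WT, P10 (35S::PID10) and P21 (35S::PID21) were sequenced with a TruSeq Stranded kit, and per the labels each group held biological replicates. The authors mapped reads to TAIR10 with CLC Genomics Workbench and deposited read counts per gene region (total and unique) and RPKM values. The labels describe the lanes of a library as combined, while the table headers name a single lane each. The strand setting of the counting is not given in the sources used here, so reads of overlapping or antisense partners cannot be told apart. The deposited tables also hold normalized values, fold changes and p-values of the authors' own comparisons, which were not used, and 393 per-sample columns were left out. P21 replicate 1 was not analysed here.

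Unique gene counts of 16 libraries were fitted with edgeR 4.0.16 (R 4.3.3; TMM, filterByExpr, robust quasi-likelihood, 10 residual degrees of freedom). Of 28642 loci 16499 were tested and 12143 removed for low counts, and the common biological variation was 18.8%. Adjusted p-values are Benjamini-Hochberg over all genes tested. In counts simulated for WT 16 against 9 DAS from the 16499 genes, of which 16060 passed the filter in the simulated data, 53 of 100 genes changed by log2 1 and 92 of 100 changed by log2 2 were called, with 11 of 16299 unchanged genes. A gene with no read in a group was set against 3 reads over that group, and intervals of read ratios are exact at 95% and cover counting error only. The 36 pathway and 9 marker lists, the members and the tests were chosen with earlier results of these data known. Genes named were the 12 largest rises and 12 largest falls with at least 50 reads on average and no overlap of the days, up to 4 called genes per list with at least 20 reads on average, the largest member against each list and a fixed set (PID, CCA1, LHY, PRR5, GI, GRP7, CYCB1;1, GRF5, GIF1, STM, LHCB1.1, RBCS1A, SUC2 and SAG12). The genes taken from a list, and those against it, also had to show no overlap of the days. Other members appear with their values to describe a list and were chosen after these were seen. Names came from RefSeq's TAIR10.1 table, which matched 28009 of 28642 loci, and promoters from the TAIR10.1 genome. The 19 alternatives were 6 fits that each left out a WT library and 13 other settings, including DESeq2 1.42.0 and limma 3.58.1 on log2(RPKM + 1) and log2(RPKM + 0.1). A result that the rule for named genes would include is not reported here.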

Additional observations from a re-analysis of the deposited data

Results flagged for a closer look

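These results are named genes whose day change in a line differed from that in WT by edgeR's quasi-likelihood test of the difference (adjusted p under 0.05 and a difference beyond 0.75 on the log2 scale). All comparisons use the same WT libraries. Most of these genes were named for a large change in those libraries without overlap of the days. That choice raises the WT change and favours a smaller one in the line. Values are the day change of the line minus that of WT. The index of WT differs between the days and that of P21 does not. For P21 index and line can therefore not be told apart in these differences.

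In P21 the difference was positive, because the WT fall was smaller or absent, for PDH1 (3.73), GIF1 (2.27), PCNA1 (2.12), HTA8 (1.97), FER4 (1.84), MCM4 (1.77), HTA11 (1.74), cINV1 (1.71), ANT (1.53), HEMC (1.28), HEME1 (1.24), PFL (1.23), HTA13 (1.16), RPS5A (1.16) and RPS15A (0.98). It was negative, the WT rise being smaller or absent, for COR15A (-3.88), AT1G23130 (-3.12), AT1G67865 (-3.11), CYP79B2 (-2.32), PP2-A1 (-2.24), NRT1.7 (-2.2), FRO7 (-2.05), SWEET11 (-1.97), PAD4 (-1.84), FMO GS-OX1 (-1.75), AOS (-1.67), SUC2 (-1.31) and SMR1 (-1.17). FER4 rose in P21 by 1.01 where it fell in WT by 0.84.

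In P10 the difference was positive for LDOX (8.44), DFR (6.64), LAX2 (1.95), GLN1;3 (1.78), ANT (1.5), GAI (1.21), PID (1.2) and ER (0.85). PID is the gene the line overexpresses. It was negative for PR5 (-6.28), ARR15 (-3.44), SPL4 (-3.38), GASA1 (-2.55), TIP2;2 (-2.08), FRO7 (-1.92), XTH31 (-1.84), SWA2 (-1.83), OLI2 (-1.73), NIR1 (-1.71), KCS1 (-1.43), SWEET11 (-1.43), PIP1A (-1.35), AT1G23130 (-1.33), PSAH-1 (-1.29), SMR1 (-1.09) and VAR1 (-0.84). PR5 and ARR15 fell in P10 by 4.4 and 1.49 where they rose in WT.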

How the results depend on the processing

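The WT comparison gave 5428 to 6026 DEGs when a WT library was left out (2711 to 3118 higher, 2677 to 2908 lower), and 5938 with a replicate block. Replicate numbers did not pair the WT samples, since correlations of same-numbered deviations were 0.0555, -0.0604 and -0.032. With the fold change tested against 0.75 by glmTreat 3324 genes passed (1843 higher, 1481 lower). On log2(RPKM + 1) 2038 genes were higher, and on log2(RPKM + 0.1) 4667 were lower. The count of genes whose day change differed from WT was 480 to 891 for P10 and 318 to 473 for P21 in the fits without a library, 648 and 392 with a replicate block, and 78 and 29 with glmTreat. Of 3532 values of 186 named genes 3430 kept direction and call, 90 (26 genes) lost the call, 7 (4 genes) gained it and 5, all of GI, turned sign. Most of these genes were named for a large change without overlap of the days, which favours a kept call. The counts do not extend to the other DEGs. GI changed by 0.14 on the log2 scale, and by -0.02 with upper-quartile factors, 2.54 without replicate 2 at 9 DAS, -0.33 and -0.44 without replicate 1 or 3 at 9 DAS and -0.01 and -0.10 without replicate 2 or 3 at 16 DAS. Of 1197 list counts 146 moved by over 1.5 times. The cause was not tested. Depth limits genes with few reads, whose ratios have wide intervals.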
